A study of Homo sapiens with 6 samples.

Results

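The genes described here lie on human chromosome 21 and had 60 or more counts summed over 6 RNA libraries of HCT116 cells, an established human colorectal carcinoma line. By GENCODE release 29 on GRCh38, 794 gene IDs of the deposited table lie on this chromosome, 146 reached that total, and 140 of the table's 59715 IDs remained after LTN1, RUNX1, LSS, CHAF1B, PFKL and MX1 were set aside. They comprised 112 protein-coding genes, 12 long intergenic noncoding RNAs, 8 antisense RNAs, 2 processed pseudogenes and 6 genes of other kinds. The last genes inside the limit were CBR3-AS1 and CU638689.5, each with 61 counts, and the first outside were AP001412.1 with 56 and AATBC with 51. The members were chosen by position and by total counts, but the chromosome was singled out with earlier results of these data known, in which it was higher in the knockout. The size of the shared change is therefore described without a test.

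The 6 libraries are poly(A)-selected RNA, 3 of them from wild-type cells (MLL4WT) and 3 from cells in which MLL4 was knocked out (MLL4KO), and both were cultured alike in DMEM with serum and no stated treatment. MLL4 is the usual name of KMT2D, a methyltransferase that places methyl marks on histone H3 at enhancers. The labels do not say how the knockout was made, whether it is 1 clone, or whether libraries were made from independent cultures, so p-values measure only the spread between these samples. Any other difference between the lines cannot be told apart from the loss of MLL4.

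Chromosome 21 is the smallest human autosome, and an extra copy of it causes Down syndrome. Its long arm carries genes with unrelated roles, among them the amyloid precursor APP, the antioxidant enzyme SOD1, a cluster of cytokine receptor subunits, the kinase DYRK1A and chains of collagen VI. Its short arm and the region beside the centromere hold ribosomal RNA genes and repeats, and GRCh38 also places copies of some long-arm genes there, several of which are known to be errors of that assembly.

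Library totals ran from 6829400 to 19736751 counts, with MLL4WT replicate 1 the shallowest. KMT2D stood at 240, 231 and 234 CPM (counts scaled to library size by TMM) in MLL4WT and 230, 243 and 225 CPM in MLL4KO (edgeR adjusted p = 0.832), and since the labels do not say which bases were deleted, this does not check the genotypes. The epithelial markers KRT8, KRT18, KRT19, EPCAM, CLDN4 and CDH1 were present at 10.3 CPM or more in all 6 libraries. Of the blood markers HBB and CD3E had at most 1 count in any library, and PTPRC stayed under 1 CPM. The endothelial marker CDH5 had at most 2 counts in any library, and PECAM1 and VWF, between 0.459 and 1.65 CPM in MLL4WT and 0.796 and 2.65 CPM in MLL4KO, did not pass the test (edgeR adjusted p = 0.11 and 0.0588). VIL1, an epithelial marker, was at 1.19 CPM or less. Among stromal markers COL3A1 went from between 4.94 and 5.51 CPM to between 0.398 and 1.13 CPM, COL1A1 rose from between 21.8 and 23.1 to between 25.1 and 28.7 CPM (log2 0.28, edgeR adjusted p = 0.0106). PDGFRB rose from between 1.78 and 3.33 to between 4.25 and 4.78 CPM (log2 0.65, edgeR adjusted p = 0.0229). KRT8 fell by 0.70 and EPCAM by 0.52 on the log2 scale in MLL4KO, and the part of these changes in the results was not tested.

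Chromosome 21 genes were higher in MLL4KO as a group. The 140 members together held 0.760%, 0.786% and 0.781% of all counts in the MLL4WT libraries and 1.15%, 1.16% and 1.16% in the MLL4KO libraries. Summed, they came to 7711, 8089 and 8001 CPM in MLL4WT and 11269, 11335 and 11401 CPM in MLL4KO, so that every MLL4KO library lay above every MLL4WT library. RNA from the whole culture was measured, so a change in the share of cells that express a gene and a change in RNA per cell cannot be told apart, and DNA copy number was not measured.

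The middle member was 1.42-fold higher in MLL4KO, a median log2 fold change of 0.51, with quartiles of 0.30 and 0.77 (1.23-fold and 1.71-fold). The 14396 tested genes off the chromosome had a median of -0.01 and quartiles of -0.22 and 0.22. Of the members, 124 had a log2 fold change above 0, 60 were at least 1.5-fold higher and 14 at least 2-fold. The log2 fold change is of MLL4KO relative to MLL4WT throughout. Where a standard error (SE) is given with it, this was worked back from the F statistic of the test.

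The shift had nearly the same size in each knockout library. Against the mean of the MLL4WT libraries, with 0.25 CPM added, the median member was at 0.48, 0.50 and 0.51 on the log2 scale in MLL4KO replicates 1, 2 and 3, and between -0.0023 and 0.0019 in the MLL4WT libraries. A code in the column names, which no label explains, is shared by MLL4WT replicate 3 and MLL4KO replicate 1, and another by MLL4WT replicate 2 and MLL4KO replicates 2 and 3. The median within these groups was 0.48 and 0.49, and MLL4WT replicate 1 alone has its code.

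**Figure D1:**
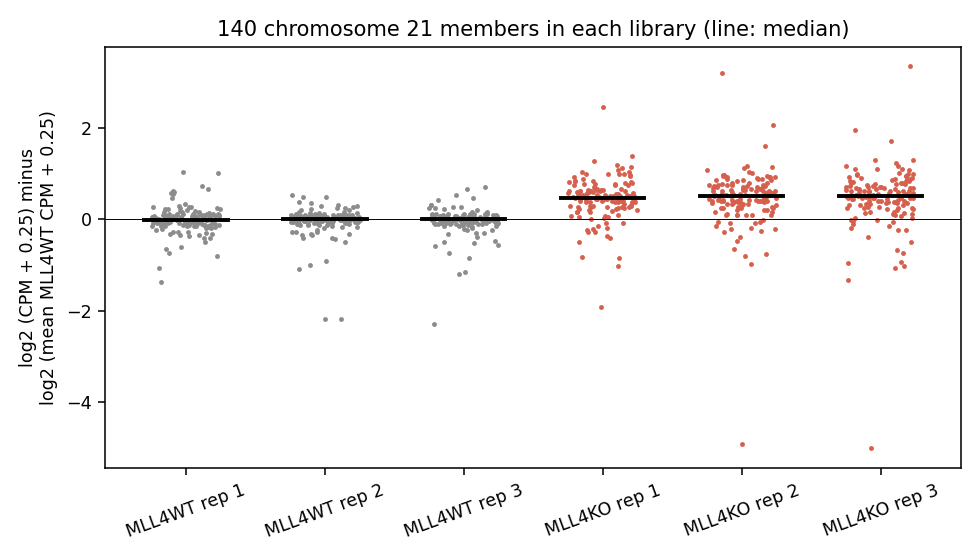
Log2 ratio of each of the 140 members to its mean in MLL4WT (vertical axis, 0.25 CPM added to both) in each of the 6 libraries (horizontal axis), with points for genes and a line for the median. The medians of the MLL4KO libraries lie between 0.48 and 0.51, those of the MLL4WT libraries beside 0.

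No other chromosome stood near this value. The next highest medians were 0.042 on chromosomes 10 and 13 and 0.041 on chromosome 5, and the lowest was -0.10 on chromosome 8. On chromosome 21, 95 of the 140 members rose and 3 fell in the edgeR quasi-likelihood test at an adjusted p under 0.05, which is 67.9% and 2.14%, and 42 did not pass. Over all 14543 tested genes the shares were 19.8% higher and 21.6% lower, and on the other chromosomes between 12.8% and 25.2% of tested genes rose. In 102 members (72.9%) all 3 MLL4KO libraries lay above all 3 MLL4WT libraries, against 25.9% of all tested genes. In 5 members they lay below, against 26.6%.

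**Figure D2:**
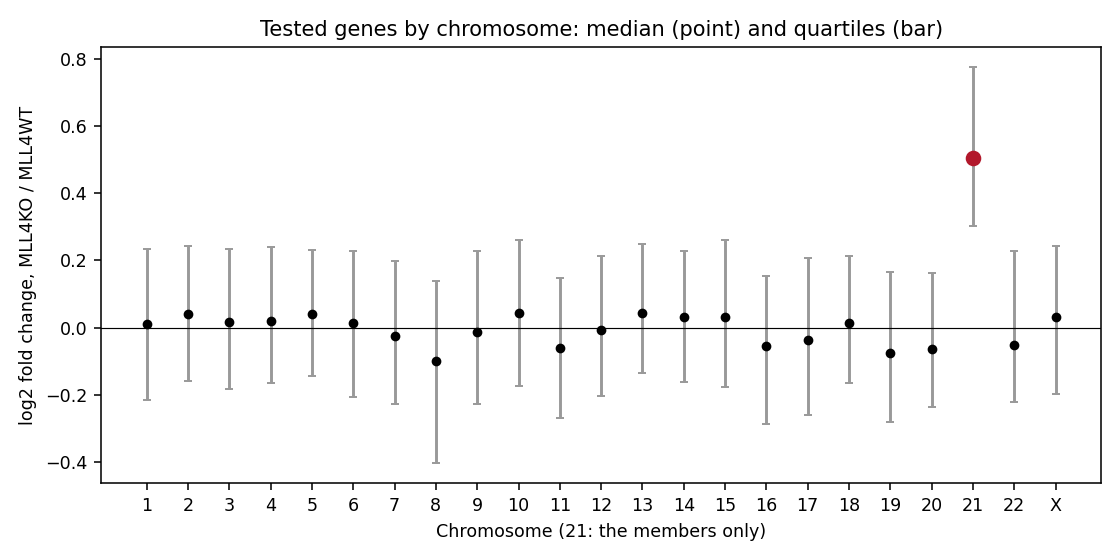
Log2 fold change of MLL4KO relative to MLL4WT (vertical axis) of the tested genes on each chromosome (horizontal axis), with a point for the median and a bar from the lower to the upper quartile. Chromosome 21 lies at 0.51 with its lower quartile at 0.30, above the upper quartile of every other chromosome.

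The rise was seen in the most abundant members, whose counts carry the least sampling error. CCT8, a subunit of the chaperonin that folds actin and tubulin, was at 580, 669.6 and 668 CPM in MLL4WT and 833, 836 and 850.5 CPM in MLL4KO. It rose 1.31-fold (log2 0.39 ± 0.06, edgeR adjusted p = 0.000158). APP, the precursor of the amyloid beta peptide, was at 443, 518 and 507 CPM in MLL4WT and 759, 752 and 759.8 CPM in MLL4KO, and rose 1.54-fold (log2 0.63 ± 0.06, edgeR adjusted p = 4.81e-06). In both genes the genotypes did not overlap, and MLL4WT replicate 1 was the lowest of its group.

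SON, a splicing cofactor of nuclear speckles, stood at 502, 511 and 507 CPM in MLL4WT and 621, 634 and 636 CPM in MLL4KO. Its rise of 1.24-fold (log2 0.31 ± 0.04, edgeR adjusted p = 7.22e-05) was smaller than the shared shift. SOD1, the copper and zinc superoxide dismutase, stood at 234, 311 and 307 CPM in MLL4WT and 496, 488 and 499 CPM in MLL4KO, a rise of 1.73-fold (log2 0.79 ± 0.10, edgeR adjusted p = 0.000279), with MLL4WT replicate 1 again the lowest library. HMGN1, a nucleosome-binding protein, stood at 249, 279 and 267 CPM in MLL4WT and 421, 427 and 445 CPM in MLL4KO, a rise of 1.62-fold (log2 0.70 ± 0.05, edgeR adjusted p = 8.54e-07). The 3 MLL4KO values of these genes lay close to each other and above all MLL4WT values.

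RRP1B, a nucleolar protein of ribosome biogenesis, was at 263, 271 and 256 CPM in MLL4WT and 349.5, 348 and 350.5 CPM in MLL4KO, and rose 1.33-fold (log2 0.41 ± 0.04, edgeR adjusted p = 1.33e-05). PDXK, the kinase that makes the active form of vitamin B6, was at 162, 151 and 156 CPM in MLL4WT and 244, 248 and 244 CPM in MLL4KO, and rose 1.57-fold (log2 0.65 ± 0.04, edgeR adjusted p = 5.3e-07). UBE2G2, a ubiquitin-conjugating enzyme of endoplasmic reticulum quality control, was at 163, 172 and 175 CPM in MLL4WT and 261, 258 and 268 CPM in MLL4KO, and rose 1.54-fold (log2 0.62 ± 0.05, edgeR adjusted p = 9.19e-07). COL6A1, a chain of collagen VI, rose 1.69-fold (log2 0.75 ± 0.04, edgeR adjusted p = 1.15e-07), and PTTG1IP, a binding partner of securin, rose 1.33-fold (log2 0.42 ± 0.04, edgeR adjusted p = 1.52e-05). All 10 of the most abundant members rose, between 1.24-fold and 1.73-fold, and none had overlapping genotypes. Against the shared shift, SOD1, HMGN1, PDXK, UBE2G2 and COL6A1 lay above and SON below, by log2 0.29, 0.19, 0.15, 0.12, 0.25 and -0.19. Without MLL4WT replicate 1, APP also lay above it (log2 0.05, edgeR adjusted p = 0.0388). CCT8, RRP1B and PTTG1IP then lay below it (log2 -0.18, -0.10 and -0.10, edgeR adjusted p = 2.97e-08, 0.00267 and 0.00614). The departure of SOD1 was lost without MLL4KO replicate 1 and was 0.17 without MLL4WT replicate 1 (edgeR adjusted p = 5.93e-07). That of PDXK was lost without MLL4WT replicates 2 or 3 or MLL4KO replicates 1 or 2. That of UBE2G2 was lost with limma-voom, with no filter and without any 1 library other than MLL4WT replicate 1 (log2 between 0.09 and 0.12).

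The share that passed the test followed the level. Of 57 members with a mean of 50 CPM or more, 50 rose and 1 fell, and their median log2 fold change was 0.50. Of 49 members from 5 to 50 CPM, 36 rose and 2 fell, with a median of 0.58. Of 34 members under 5 CPM, 9 rose and none fell, but their median was 0.49. The median SE of a log2 fold change was 0.33, so that a shift of the shared size could seldom be detected at this depth. Members were admitted on counts summed over both genotypes. At a given low level in MLL4WT, a gene was thus more readily admitted if it was higher in MLL4KO. The median and the 9 rises of this class may be tilted upward by this rule, which was not tested. They do not show on their own that low genes share the shift. Protein-coding members had a median of 0.51, with 89 of 112 risen. The 28 other members had a median of 0.46, with 6 risen, and a median SE of 0.34.

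The shift ran along the whole measured chromosome. In windows of 5 Mb by gene start, the median log2 fold change was 0.69 over 6 members between 15 and 20 Mb, 0.45 over 11 between 25 and 30 Mb, 0.55 over 30 between 30 and 35 Mb, 0.59 over 18 between 35 and 40 Mb, 0.42 over 36 between 40 and 45 Mb, and 0.69 over the 20 beyond 45 Mb. HSPA13, a chaperone of the HSP70 family, was the only member between 10 and 15 Mb, at 0.90. The 18 members that start before 10 Mb had a median of 0.32, and only 5 of them rose. These are mostly low transcripts and copies of long-arm genes. The 122 members beyond 10 Mb had a median of 0.53, with 90 risen and 3 fallen.

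To separate the shared shift from genes that depart from it, each gene was tested against the shift itself, entered as a fixed offset of the MLL4KO libraries in the edgeR model, with p-values adjusted over all 14543 genes. The departure is the log2 fold change minus the shift. By this test 30 members lay above the shift, 27 lay below it and 83 did not pass, or 21.4% and 19.3% for the first 2 groups. Over all tested genes, most of which do not share the shift, 3.35% lay above it and 72.5% below. Because so many genes passed, adjusting over all of them was lenient for the members. The threshold therefore does not limit the share of false departures among the members. On simulated counts, 7 of 95 members at the shift were called, beside 36 of 39 that departed 1.5-fold. Every simulated departure had that size, and far fewer genes off the chromosome changed than in these data. The simulation therefore does not show how often smaller departures, such as many of those called here, are detected. The members above the shift had all risen. Of the 27 below, 11 had risen by less than the shift, 13 showed no call against MLL4WT and 3 had fallen. A further 54 members rose with no departure call, and 29 passed neither test. Of the 98 calls against MLL4WT 83, and of the 57 departure calls 42, held under every alternative setting in which the gene could be fitted. Genes summed with a near-identical copy were not fitted singly in that setting. The calls of SIK1, SIK1B, GATD3 and GATD3B against MLL4WT thus count as held, though neither sum passed (log2 0.04 and 0.10, edgeR adjusted p = 0.722 and 0.154).

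The members spread around their shift. The median absolute departure was 0.24 on the log2 scale, and the median absolute log2 fold change off the chromosome was 0.22. Only 8 members were more than 1.5-fold above the shift and 14 more than 1.5-fold below it.

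**Figure D3:**
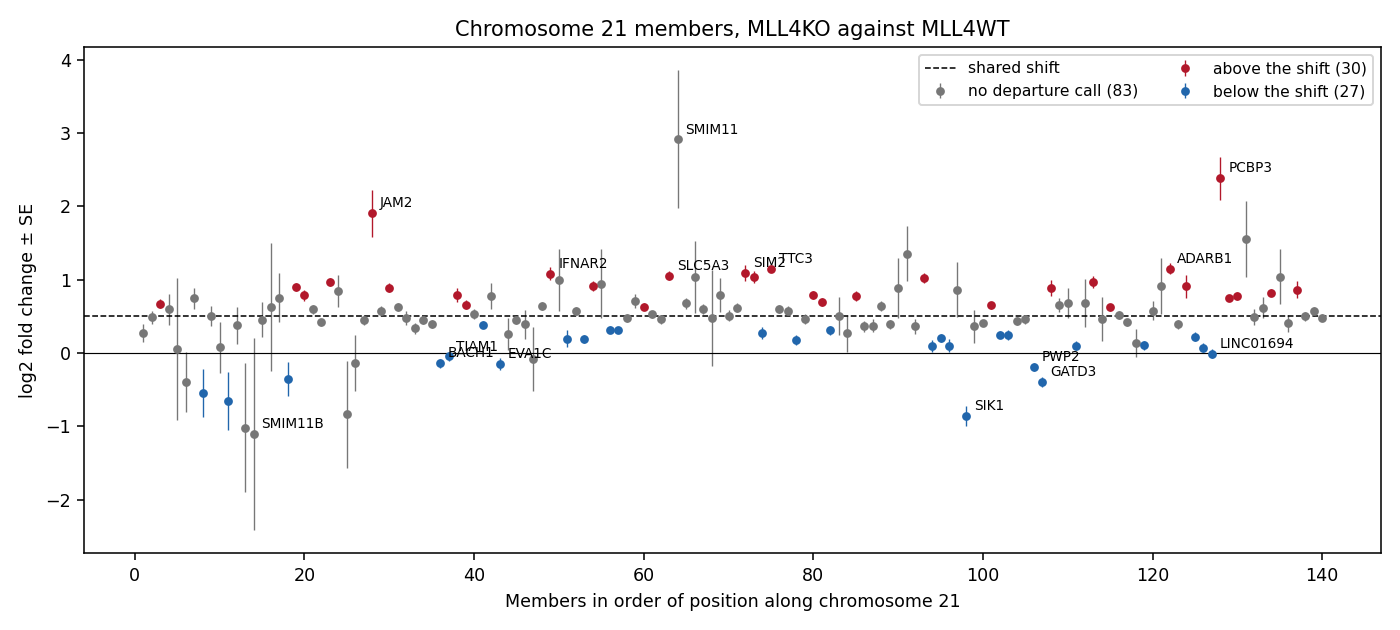
Log2 fold change with its SE (vertical axis) of the 140 members in the order of their starts along the chromosome (horizontal axis), with red for the 30 members above the shift, blue for the 27 below it and grey for the 83 without a departure call. The dashed line marks the shared shift of 0.51, and genes above and below it occur side by side along the chromosome. Grey does not mean close to the shift. The grey points include the highest and lowest values, SMIM11 at 2.92 and SMIM11B at -1.11, with SEs of 0.94 and 1.31.

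Of the departing members with 5 CPM or more and genotypes that do not overlap once the shift is taken off, the farthest above the shift was TTC3 (chr21:37073226-37203112), which encodes a ubiquitin ligase. It was at 102, 109 and 105 CPM in MLL4WT and 228, 237 and 237 CPM in MLL4KO. It rose 2.22-fold (log2 1.15 ± 0.05, edgeR adjusted p = 6.79e-09), a log2 departure of 0.65 (edgeR adjusted p = 1.13e-07). The genotypes were far apart, and the 3 libraries of each lay close together.

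ADARB1 (chr21:45073853-45226560), which encodes the RNA-editing enzyme ADAR2, was at 22.9, 23.9 and 20.3 CPM in MLL4WT and 49.7, 49.7 and 48.2 CPM in MLL4KO, and rose 2.22-fold (log2 1.15 ± 0.07, edgeR adjusted p = 3.07e-07), a log2 departure of 0.64 (edgeR adjusted p = 5.46e-06). SIM2, a basic helix-loop-helix transcription factor, was at 27.6, 19.3 and 18.4 CPM in MLL4WT and 45.2, 44.8 and 43.5 CPM in MLL4KO, a log2 departure of 0.59 (edgeR adjusted p = 0.000736), and MLL4WT replicate 1 was the highest of its group. IFNAR2, a chain of the type I interferon receptor, was at 13.7, 17.1 and 16.9 CPM in MLL4WT and 36.8, 32.4 and 33.8 CPM in MLL4KO, and rose 2.12-fold (log2 1.08 ± 0.09, edgeR adjusted p = 2.18e-06), a log2 departure of 0.58 (edgeR adjusted p = 6.85e-05). Each of these genes at least doubled, with no overlap between genotypes.

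SLC5A3, the sodium-coupled myo-inositol transporter, was at 30.2, 30.3 and 32.9 CPM in MLL4WT and 62.3, 66.5 and 66.7 CPM in MLL4KO, a log2 departure of 0.55 (edgeR adjusted p = 4.92e-06). HLCS, the ligase that attaches biotin to carboxylases, was at 22.6, 19.9 and 20.1 CPM in MLL4WT and 43.3, 45.5 and 37.8 CPM in MLL4KO, a log2 departure of 0.53 (edgeR adjusted p = 0.000108). PDE9A, a phosphodiesterase that degrades cyclic GMP, was at 21.4, 21.9 and 24.01 CPM in MLL4WT and 48, 44.1 and 45.5 CPM in MLL4KO, a log2 departure of 0.52 (edgeR adjusted p = 2.85e-05). LRRC3, a membrane protein with leucine-rich repeats, completed the 8 farthest above the shift, with a log2 fold change of 0.97 and a log2 departure of 0.46 (edgeR adjusted p = 0.000136). All 8 kept both calls under every alternative setting.

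Among members at lower levels, PCBP3 and JAM2 were picked out after their values were seen. PCBP3, an RNA-binding protein, stood at 0.743, 1.097 and 0.689 CPM in MLL4WT and 5.72, 4.31 and 3.32 CPM in MLL4KO. Its fold change was 5.22 (edgeR adjusted p = 5.39e-05). JAM2, a junctional adhesion molecule, stood at 0.446, 0.617 and 0.804 CPM in MLL4WT and 2.04, 2.403 and 3.12 CPM in MLL4KO, with a fold change of 3.75 (edgeR adjusted p = 0.000506). Both had separate genotypes, on totals of 268 and 153 counts over the 6 libraries.

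The remaining members above the shift included C21orf91, at 38.9, 41.1 and 42.1 CPM in MLL4WT and 81.5, 79.1 and 78.9 CPM in MLL4KO, a log2 departure of 0.46 (edgeR adjusted p = 6.93e-06). C21orf58 was at 7.43, 6.58 and 6.49 CPM in MLL4WT and 12.5, 12.4 and 11.8 CPM in MLL4KO, and its log2 departure of 0.36 (edgeR adjusted p = 0.0105) was lost with the DESeq2 Wald test and without MLL4WT replicate 3 (edgeR log2 0.31, adjusted p = 0.0606). SCAF4, a protein that binds the tail of RNA polymerase II, was at 74.4, 66.3 and 64.3 CPM in MLL4WT and 102, 108 and 110.2 CPM in MLL4KO, and its log2 departure of 0.15 (edgeR adjusted p = 0.0377) was lost with the DESeq2 Wald test, with limma-voom and without any 1 library other than MLL4WT replicate 1 (log2 between 0.09 and 0.16). In all 3 genes every MLL4KO value lay above every MLL4WT value.

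On the low side, 3 of the 8 farthest members have near-identical copies and are described with these. The other 5 did not pass the test against MLL4WT. EVA1C (chr21:32412006-32515397), a membrane protein that binds heparin and the axon guidance ligand SLIT, was at 23.2, 21.7 and 21.5 CPM in MLL4WT and 18.1, 21.3 and 20.1 CPM in MLL4KO, or log2 -0.15 (edgeR adjusted p = 0.162), with a log2 departure of -0.66 (edgeR adjusted p = 1.11e-05). BACH1, a haem-sensing transcriptional repressor, was at 57.6, 64.3 and 63.2 CPM in MLL4WT and 53.4, 58.4 and 57.6 CPM in MLL4KO, or log2 -0.14 (edgeR adjusted p = 0.0862), with a log2 departure of -0.64 (edgeR adjusted p = 9.96e-07). In both the knockout values overlapped or lay just under those of MLL4WT, where most of the chromosome lay above. Without MLL4WT replicate 1, BACH1 passed the test as lower (log2 -0.17, edgeR adjusted p = 0.00785).

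TIAM1, which activates the small GTPase RAC1, was at 42.5, 39.3 and 39.98 CPM in MLL4WT and 38.6, 38.5 and 40.2 CPM in MLL4KO, a log2 departure of -0.55 (edgeR adjusted p = 4.4e-06). LINC01694, a long noncoding RNA, was at 58.4, 60.3 and 55.4 CPM in MLL4WT and 54.8, 62.1 and 55.97 CPM in MLL4KO, a log2 departure of -0.51 (edgeR adjusted p = 1.11e-05). SLC19A1, the reduced folate carrier, was at 123, 118 and 103 CPM in MLL4WT and 119, 122 and 117 CPM in MLL4KO, a log2 departure of -0.44 (edgeR adjusted p = 3.92e-05). These values overlapped between the genotypes. SLC19A1 shares 14% of its exonic bases with COL18A1 on the other strand, and without strand the reads of the pair cannot be told apart. Without MLL4WT replicate 1, SLC19A1 passed the test as higher (log2 0.13, edgeR adjusted p = 0.0255).

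Other members below the shift rose by less than it or did not pass against MLL4WT. CSTB, the cysteine protease inhibitor cystatin B, was at 132, 128 and 123 CPM in MLL4WT and 153, 147 and 154 CPM in MLL4KO, and rose 1.19-fold (log2 0.25 ± 0.05, edgeR adjusted p = 0.00132), a log2 departure of -0.26 (edgeR adjusted p = 0.000325). GET1, a receptor for the insertion of tail-anchored proteins, rose 1.24-fold (log2 0.31 ± 0.06, edgeR adjusted p = 0.00195), and its log2 departure of -0.19 (edgeR adjusted p = 0.0143) was lost with the DESeq2 Wald test and without MLL4WT replicate 3 (edgeR log2 -0.17, adjusted p = 0.0611). SLX9, a ribosome biogenesis factor, was at 55.6, 62.97 and 58.01 CPM in MLL4WT and 62.2, 63.4 and 65.5 CPM in MLL4KO (edgeR adjusted p = 0.172), a log2 departure of -0.40 (edgeR adjusted p = 4.57e-05). With total counts alone it passed as higher (log2 0.17, edgeR adjusted p = 0.0321). The genotypes of CSTB did not overlap, and those of SLX9 did. TEKT4P2, a pseudogene, and CU633906.2 and CU638689.5, which start before 10 Mb, were also below the shift, at no more than 5.498, 1.58 and 0.892 CPM in any library. The call of CU633906.2 was lost without MLL4WT replicate 2, and that of CU638689.5 with the DESeq2 Wald test and without MLL4WT replicate 3 or MLL4KO replicate 3.

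Members that followed the chromosome included DONSON, which protects replication forks, at 67.6, 63.03 and 59.1 CPM in MLL4WT and 87.7, 86.3 and 87.4 CPM in MLL4KO, a log2 departure of -0.03 (edgeR adjusted p = 0.63). MORC3, a nuclear ATPase, had a log2 fold change of 0.62, and VPS26C, a subunit of an endosomal retrieval complex, 0.60. MLL4WT replicate 1 stood apart in 2 entries without a call. PPIAP22, a pseudogene of cyclophilin A, was at 37.6, 9.603 and 7.87 CPM in MLL4WT and 8.903, 9.24 and 8.71 CPM in MLL4KO, and RNA5-8SN2, a ribosomal RNA gene, at 3.86, 14.8 and 12.5 CPM in MLL4WT and 17.6, 19.6 and 20.8 CPM in MLL4KO. Leaving out that library gave log2 0.05 (edgeR adjusted p = 0.779) and log2 0.51 (edgeR adjusted p = 8.63e-05).

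**Figure D4:**
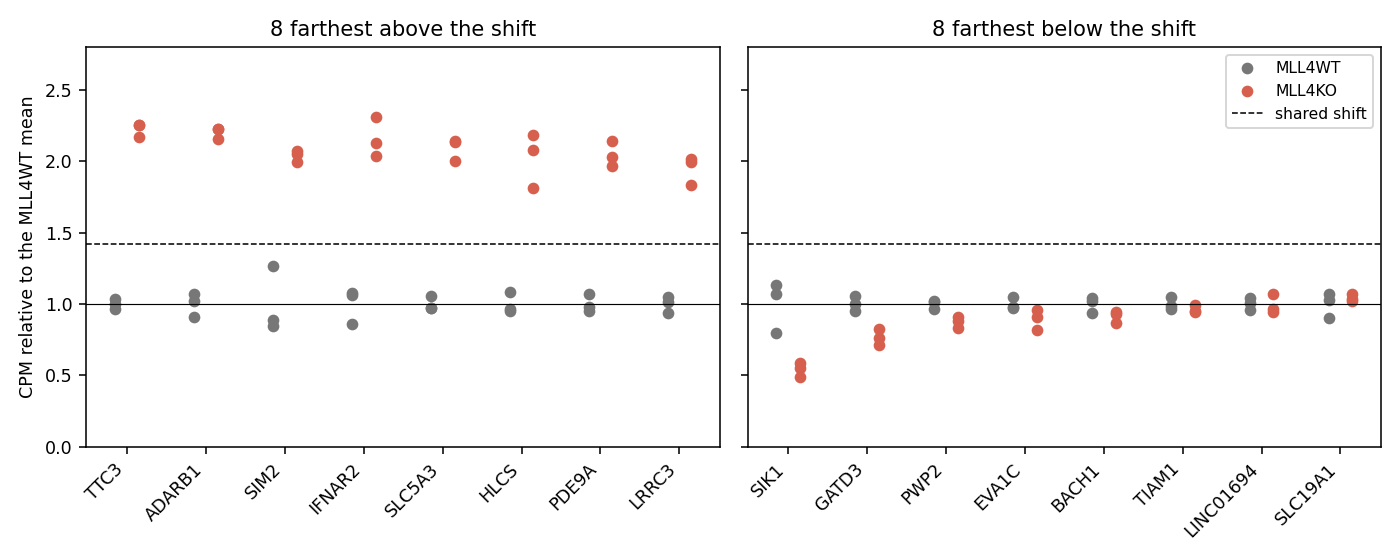
CPM relative to the MLL4WT mean (vertical axis) in each of the 6 libraries for the 8 members farthest above the shift (left) and the 8 farthest below it (right) by the naming rule, grey for MLL4WT and red for MLL4KO. The dashed line marks the shared shift of 1.42-fold; knockout values lie well above it on the left and under it on the right.

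The cytokine receptor subunits, which sit beside each other on the long arm, split in this comparison. Of the 4 subunits 3 rose, and 1 lay above and 2 below the shift, with a median log2 fold change of 0.38. For this list and those that follow, the shares over all members were 67.9% risen, 21.4% above the shift and 19.3% below it. Of 112 protein-coding members 89 rose, and over all 14543 tested genes 19.8% rose. The lists were written with earlier results known, and their counts were not tested against these shares. IFNAR1, the other chain of the type I interferon receptor, was at 67.02, 70.7 and 65.7 CPM in MLL4WT and 101, 102 and 99.4 CPM in MLL4KO, and rose 1.49-fold (log2 0.57 ± 0.05, edgeR adjusted p = 3.88e-06), with a log2 departure of 0.07 (edgeR adjusted p = 0.234). IFNGR2, a chain of the interferon gamma receptor, was at 63.1, 57.1 and 58.6 CPM in MLL4WT and 68.4, 68.9 and 65.8 CPM in MLL4KO, and rose 1.14-fold (log2 0.19 ± 0.06, edgeR adjusted p = 0.015), a log2 departure of -0.31 (edgeR adjusted p = 0.000216). IL10RB, a chain shared by the receptors of interleukin 10 and related cytokines, was at 22.6, 21.5 and 15.9 CPM in MLL4WT and 23.9, 21.6 and 21.3 CPM in MLL4KO (edgeR adjusted p = 0.216), with a log2 departure of -0.31 (edgeR adjusted p = 0.0317). IFNAR1 thus moved with the chromosome, IFNAR2 by more and IFNGR2 by less, and the values of IL10RB overlapped.

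IFNAR2 shares 44.2% and IL10RB 38.1% of its exonic bases with a readthrough transcript of the pair, so their values depend on how the authors' counting shared those reads. The antisense transcript IL10RB-DT, of which 80.9% of the exonic bases overlap IFNAR2 on the other strand, was at 4.16, 1.85 and 1.61 CPM in MLL4WT and 2.74, 4.44 and 6.58 CPM in MLL4KO. It did not pass the test (log2 0.99, edgeR adjusted p = 0.0932), but passed it without MLL4WT replicate 1 (log2 1.39, edgeR adjusted p = 0.00892) or MLL4KO replicate 1 (log2 1.27, edgeR adjusted p = 0.0303). The rise of IFNGR2 was lost without MLL4WT replicates 2 or 3 and without MLL4KO replicates 1 or 2 (log2 between 0.17 and 0.19), and the departure of IL10RB without MLL4WT replicate 2 or MLL4KO replicates 2 or 3 (log2 between -0.31 and -0.24), while without MLL4WT replicate 3 the latter was -0.50.

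Of 15 transcription factors and chromatin proteins, 13 rose and none fell, with a median log2 fold change of 0.53; 4 lay above the shift and 3 below. Beside SIM2 the genes above were GABPA, the DNA-binding subunit of GA-binding protein (log2 0.89), BRWD1, a bromodomain protein (log2 0.79), and HMGN1. Beside BACH1 those below were ETS2, an ETS family factor that rose by log2 0.18 (edgeR adjusted p = 0.0494), a call lost with the DESeq2 Wald test and without any 1 of MLL4WT replicates 2 and 3 and MLL4KO replicates 1 and 2 (log2 between 0.14 and 0.19), and PKNOX1, a homeodomain partner of PBX and HOX proteins, at log2 0.10 (edgeR adjusted p = 0.405), or 0.18 without MLL4WT replicate 1 (edgeR adjusted p = 0.0413). MIS18A, which helps deposit the centromeric histone CENP-A, was at 54.1, 69.8 and 66.3 CPM in MLL4WT and 92.5, 91.8 and 95.1 CPM in MLL4KO, and PRMT2, a protein arginine methyltransferase, at 84.8, 84.8 and 90.6 CPM in MLL4WT and 121, 120 and 123 CPM in MLL4KO. These last 2 genes lay on the shift, with log2 departures of 0.03 (edgeR adjusted p = 0.752) and -0.02 (edgeR adjusted p = 0.678).

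Of 13 genes of RNA processing and ribosome biogenesis, 10 rose and 1 fell, with a median log2 fold change of 0.41, and 4 lay above the shift and 5 below. MCM3AP, an mRNA export factor, was at 134, 133 and 130.4 CPM in MLL4WT and 232, 229 and 241 CPM in MLL4KO, a log2 departure of 0.32 (edgeR adjusted p = 2.74e-05). The ribosome biogenesis factors URB1, RRP1 and RRP1B had log2 fold changes of 0.39, 0.25 and 0.41. URB1 and RRP1 departed below the shift (edgeR adjusted p = 0.0234 and 0.00287), URB1 not so with no filter (edgeR adjusted p = 0.0754) or without MLL4KO replicate 3 (edgeR adjusted p = 0.131). RRP1B did not pass in the main fit (edgeR adjusted p = 0.0554). It lay below the shift in several alternatives, among them without MLL4WT replicate 3 (log2 departure -0.14, edgeR adjusted p = 0.0235). WDR4, a subunit of the enzyme that methylates guanine in transfer RNA, was at 25.6, 30.9 and 27.8 CPM in MLL4WT and 31.5, 31.7 and 27.5 CPM in MLL4KO, a log2 departure of -0.41 (edgeR adjusted p = 0.000728). Its values overlapped between genotypes, whereas those of MCM3AP did not.

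Of 11 metabolic genes 10 rose and none fell, with a median log2 fold change of 0.65, 4 above the shift and 3 below. POFUT2, which adds fucose to thrombospondin repeats, rose 1.31-fold (log2 0.39 ± 0.06, edgeR adjusted p = 0.000278). AGPAT3, an acyltransferase of phospholipid synthesis, rose 1.35-fold (log2 0.43 ± 0.06, edgeR adjusted p = 7.37e-05), and neither departed in the main fit. POFUT2 lay below the shift without MLL4WT replicate 1 (log2 departure -0.15, edgeR adjusted p = 0.0193). AGPAT3 did so without MLL4WT replicate 3 (log2 departure -0.14, edgeR adjusted p = 0.0487). Of 7 mitochondrial entries 6 rose, and GATD3, which has a near-identical copy, fell. ATP5PO and ATP5PF, subunits of ATP synthase, had log2 departures of 0.02 and 0.07 (edgeR adjusted p = 0.681 and 0.284). MRPS6 and MRPL39, mitochondrial ribosomal proteins, had log2 departures of -0.04 and -0.05 (edgeR adjusted p = 0.524 and 0.469). NDUFV3, a subunit of respiratory complex I, was at 51.4, 51.03 and 49.3 CPM in MLL4WT and 59.5, 54.4 and 60.5 CPM in MLL4KO, a log2 departure of -0.30 (edgeR adjusted p = 0.000555). Its rise (log2 0.20, edgeR adjusted p = 0.0163) was lost without MLL4WT replicate 3 or MLL4KO replicates 1 or 3 (log2 between 0.18 and 0.20).

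Genes of APP processing and membrane traffic rose in 7 of 9 cases with none fallen, 3 above the shift and none below, at a median log2 fold change of 0.63. BACE2, a protease that cleaves APP, was at 31.4, 26.5 and 28.9 CPM in MLL4WT and 48.8, 48.2 and 50.7 CPM in MLL4KO, a log2 departure of 0.28 (edgeR adjusted p = 0.0032). TMEM50B, a membrane protein, had a log2 fold change of 0.91. ITSN1, an endocytic scaffold, rose 1.55-fold (log2 0.63 ± 0.05, edgeR adjusted p = 1.44e-06). Its departure of 0.13 (edgeR adjusted p = 0.0314) was lost with the DESeq2 Wald test, limma-voom and no filter, and without any 1 of MLL4WT replicates 2 and 3 and MLL4KO replicates 1 and 2 (log2 between 0.09 and 0.13). DOP1B, a homologue of a yeast traffic protein, lay on the shift at log2 0.51. All 8 genes of ubiquitin, SUMO and protein folding rose, 4 of them above the shift and none below, at a median of 0.57. HSPA13 was at 46.7, 48.01 and 47.96 CPM in MLL4WT and 85.8, 88.2 and 92.5 CPM in MLL4KO, a log2 departure of 0.39 (edgeR adjusted p = 2.19e-05). USP25, a deubiquitinase, had a log2 fold change of 0.78, SUMO3, a small ubiquitin-like modifier, 0.51, and PSMG1, a proteasome assembly chaperone, 0.47.

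Of 8 kinases and signalling regulators 5 rose and 1 fell, at a median log2 fold change of 0.39, with none above the shift and 2 below. DYRK1A, a kinase that phosphorylates NFAT and cyclin D, was at 56.3, 56.9 and 60.8 CPM in MLL4WT and 82.8, 84.9 and 93.4 CPM in MLL4KO. It rose 1.49-fold (log2 0.58 ± 0.06, edgeR adjusted p = 1.54e-05), with a log2 departure of 0.07 (edgeR adjusted p = 0.29). RCAN1, an inhibitor of calcineurin, had a log2 fold change of 0.68, and BTG3, an antiproliferative factor, 0.42. These 3 genes had separate genotypes and did not depart from the shift, but without MLL4WT replicate 1 RCAN1 lay above it (log2 departure 0.22, edgeR adjusted p = 0.00935).

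Of 9 surface, junction and matrix genes 8 rose and none fell, at a median log2 fold change of 0.75, with 5 above the shift and 2 below. COL6A1 was at 146, 144 and 148 CPM in MLL4WT and 251, 247 and 241 CPM in MLL4KO, and COL6A2, its neighbour and partner chain, at 123, 111 and 116 CPM in MLL4WT and 209, 198 and 191 CPM in MLL4KO. Their log2 fold changes were 0.75 and 0.78, and both departed above the shift (edgeR adjusted p = 0.000186 and 0.000484). The departure of ICOSLG, also above the shift, was lost without MLL4WT replicates 2 or 3 or MLL4KO replicate 2 (log2 between 0.28 and 0.34). COL18A1, the collagen XVIII chain that carries endostatin, was at 105, 88.8 and 87.99 CPM in MLL4WT and 111, 109 and 105 CPM in MLL4KO, a log2 departure of -0.28 (edgeR adjusted p = 0.00153), and MLL4WT replicate 1 lay beside the lowest MLL4KO value. Its rise (log2 0.22, edgeR adjusted p = 0.016) was lost without MLL4WT replicates 2 or 3 or MLL4KO replicates 1 or 2 (log2 between 0.18 and 0.22). CXADR, the coxsackievirus and adenovirus receptor, rose 1.51-fold (log2 0.59 ± 0.06, edgeR adjusted p = 1.77e-05) and did not depart.

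All 6 centrosome and cilium genes rose and none departed in the main fit, at a median log2 fold change of 0.53. Without MLL4WT replicate 1, CFAP410 and DIP2A lay above the shift (log2 departures 0.23 and 0.12, edgeR adjusted p = 0.0111 and 0.0371). CFAP298, another of these genes, then lay below it (log2 departure -0.105, edgeR adjusted p = 0.0354). PCNT, the pericentrin scaffold, was at 77.4, 93.4 and 90.7 CPM in MLL4WT and 126, 127 and 121 CPM in MLL4KO, a log2 departure of -0.00 (edgeR adjusted p = 0.972). The rise of RSPH1, a cilium gene at low level, was lost without MLL4WT replicate 2 or MLL4KO replicates 1 or 3 and was log2 2.03 without MLL4WT replicate 3. CFAP410 and DIP2A rose 1.57-fold and 1.48-fold, and CFAP410 shares 46.0% of its exonic bases with AP001062.1 on the other strand. Of 4 channels and transporters 2 rose. TRPM2, a calcium channel gated by ADP-ribose, was at 60.9, 55.7 and 51.7 CPM in MLL4WT and 56.5, 60.6 and 61.96 CPM in MLL4KO (edgeR adjusted p = 0.251), a log2 departure of -0.40 (edgeR adjusted p = 0.000135), with overlapping genotypes. SLC37A1, a sugar phosphate exchanger, rose 1.28-fold (log2 0.36 ± 0.10, edgeR adjusted p = 0.0137). Leaving out MLL4WT replicate 2, MLL4WT replicate 3 or MLL4KO replicate 3 ended that call (log2 between 0.31 and 0.35). None of the 3 trefoil factor genes reached 60 counts.

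Genes that start close to each other on opposite strands had like fold changes in some pairs and unlike ones in others. Among 13 such pairs of members, GART and SON start 146 bases apart. GART, an enzyme of purine synthesis, was at 165, 183 and 171 CPM in MLL4WT and 215, 218 and 214 CPM in MLL4KO. It rose by log2 0.32 and SON by log2 0.31, and both lay below the shift (edgeR adjusted p = 0.0032 and 0.000885). PIGP, a subunit of the first enzyme of glycosylphosphatidylinositol synthesis, and TTC3 start 183 bases apart. PIGP was at 15.3, 15.98 and 14.2 CPM in MLL4WT and 18.4, 18.2 and 18.2 CPM in MLL4KO. Its log2 fold change was 0.28 and its log2 departure -0.23 (edgeR adjusted p = 0.0251), while TTC3 lay above the shift (log2 departure 0.65). The call of PIGP against MLL4WT was lost with the DESeq2 Wald test and without MLL4WT replicate 3 or any 1 MLL4KO replicate (log2 between 0.23 and 0.29). Its departure was lost with the DESeq2 Wald test, with no filter, and without MLL4WT replicate 2 or MLL4KO replicates 2 or 3 (log2 between -0.24 and -0.19).

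The bases between the starts of these pairs are shown because the fold changes of the first pair are close and those of the second are on either side of the shift. They are from RefSeq GRCh38.p14, plus strand, chr21:33542893-33543037 (GART to SON, 145 bases) and chr21:37073072-37073253 (PIGP to TTC3, 182 bases). Capitals mark the motif CCAAT or, on the other strand, ATTGG.
GART-SON: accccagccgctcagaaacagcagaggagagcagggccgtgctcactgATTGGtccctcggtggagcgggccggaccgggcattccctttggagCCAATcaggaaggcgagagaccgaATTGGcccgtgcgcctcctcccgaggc
PIGP-TTC3: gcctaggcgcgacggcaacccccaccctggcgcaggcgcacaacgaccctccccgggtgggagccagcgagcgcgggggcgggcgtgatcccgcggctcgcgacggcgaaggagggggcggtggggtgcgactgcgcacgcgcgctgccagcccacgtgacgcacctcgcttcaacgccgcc
The first holds 3 matches and the second none. In windows from 250 bases before to 50 after the start, 35.7% of 27305 RefSeq promoters hold this motif on either strand, as do 22 of the 91 members matched by symbol (24.2%). Of members above the shift 3 of 19 hold it, of members below it 4 of 22, and of members without a departure call 15 of 50. The RefSeq set was not limited to genes counted here, so it is not matched to the members. The median GC content of these windows was 58.3% in all promoters and 70.7% in the members. It was 72.3% in members above the shift, 70.3% in those below it and 70.2% in those without a departure call.

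Other such pairs fell between. ATP5PF and GABPA, 68 bases apart, had log2 fold changes of 0.58 and 0.89, and GABPA alone lay above the shift. MCM3AP and YBEY, 731 bases apart, had 0.82 and 0.41, and MCM3AP alone lay above it. C21orf58 and PCNT, 286 bases apart, had 0.87 and 0.50. URB1 and URB1-AS1, 121 bases apart, had 0.39 and 0.77, and URB1 alone lay below the shift. The differences within pairs were not tested. Exonic bases are shared by 50 of the 140 members with another counted gene, in 36 of them mainly on the other strand, and 10 members share 20% or more.

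The largest and the smallest fold changes on the chromosome both belonged to genes with copies. Members were called near-identical where 80% or more of the 31-base stretches of 1 gene lie in another gene of the chromosome, and both genes of 7 pairs were counted where the copy, placed by GRCh38 before 10 Mb, meets that limit. Of the 19 members so called, 14 are these pairs, and the others are LINC01670, CU633967.1, CU634019.1 and FP671120.1, none of which passed either test, and IL10RB-DT, which overlaps IFNAR2 on the other strand. PPIAP22, whose near match PPIA lies on chromosome 7, is not among them. The extreme pair was SMIM11 and SMIM11B, a small membrane protein gene and its copy. SMIM11 was at 2.82, 2.33 and 2.7 CPM in MLL4WT and 4.83, 26.1 and 28.9 CPM in MLL4KO, and SMIM11B at 15.01, 21.3 and 19.2 CPM in MLL4WT and 23.6, 0.3697 and 0.332 CPM in MLL4KO. Of the reads of the pair, SMIM11B held 84.2%, 90.1% and 87.7% in MLL4WT and 83%, 1.4% and 1.14% in MLL4KO replicates 1, 2 and 3. MLL4KO replicate 1 thus resembled the MLL4WT libraries, and the other 2 MLL4KO libraries did not.

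The coding sequences of this pair are shown, from GENCODE 29, because no base of their 174 differs, so that coding reads cannot be told apart.
SMIM11: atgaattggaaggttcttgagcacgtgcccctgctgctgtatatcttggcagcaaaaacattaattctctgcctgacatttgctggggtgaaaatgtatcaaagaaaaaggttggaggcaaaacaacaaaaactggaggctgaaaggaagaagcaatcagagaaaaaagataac
SMIM11B: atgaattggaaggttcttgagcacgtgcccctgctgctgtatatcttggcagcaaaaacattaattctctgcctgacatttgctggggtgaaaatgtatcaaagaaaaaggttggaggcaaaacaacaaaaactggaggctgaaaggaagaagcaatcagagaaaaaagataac
Neither gene passed the test alone (log2 2.92 and -1.11, edgeR adjusted p = 0.0728 and 0.559). Without MLL4KO replicate 1 both did, at log2 3.41 and -5.70 (edgeR adjusted p = 5.84e-07 and 1.96e-06). Summed, the pair was at 17.9, 23.4 and 21.8 CPM in MLL4WT and 28.5, 26.5 and 29.3 CPM in MLL4KO, and rose 1.31-fold (log2 0.39 ± 0.09, edgeR adjusted p = 0.00476) with no departure call (log2 -0.12, edgeR adjusted p = 0.23), though without MLL4WT replicate 1 it lay below the shift (log2 -0.20, edgeR adjusted p = 0.0215).

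All 3 members that fell belong to such pairs, and none of the sums fell. SIK1, a salt-inducible kinase, was at 20.2, 14.3 and 19.1 CPM in MLL4WT and 9.898, 10.5 and 8.71 CPM in MLL4KO, a fall of 1.81-fold (log2 -0.86 ± 0.13, edgeR adjusted p = 0.000325), and its copy SIK1B was at 12.9, 15.1 and 10.3 CPM in MLL4WT and 18.8, 20.9 and 24.4 CPM in MLL4KO, a rise of 1.68-fold (log2 0.75 ± 0.14, edgeR adjusted p = 0.00198). Their coding sequences differ at 2 of 2349 bases. The sum was at 33.2, 29.2 and 29.4 CPM in MLL4WT and 28.7, 31.5 and 33.2 CPM in MLL4KO, with overlapping genotypes (log2 0.04 ± 0.08, edgeR adjusted p = 0.722). It stayed below the shift by log2 -0.47 (edgeR adjusted p = 0.000151).

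GATD3, a mitochondrial protein, was at 45.5, 47.8 and 50.4 CPM in MLL4WT and 36.3, 39.4 and 34.2 CPM in MLL4KO, a fall of 1.31-fold (log2 -0.39 ± 0.07, edgeR adjusted p = 0.000755), and its copy GATD3B at 55.4, 41.1 and 43.9 CPM in MLL4WT and 66.2, 61.8 and 64.1 CPM in MLL4KO, a rise of 1.4-fold (log2 0.48 ± 0.09, edgeR adjusted p = 0.00121). These differ at 1 of 804 coding bases. The sum was at 101, 88.4 and 94.0 CPM in MLL4WT and 103, 102 and 98.5 CPM in MLL4KO. It did not pass the test against MLL4WT (log2 0.10 ± 0.06, edgeR adjusted p = 0.154) and lay below the shift by log2 -0.41 (edgeR adjusted p = 2.52e-05). The genotypes overlapped, and without MLL4WT replicate 1 the sum passed as higher (log2 0.14, edgeR adjusted p = 0.00693).

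PWP2, a protein of small ribosomal subunit assembly, was at 117, 118 and 112 CPM in MLL4WT and 105, 96.6 and 102 CPM in MLL4KO, a fall of 1.14-fold (log2 -0.19 ± 0.05, edgeR adjusted p = 0.00996) that was lost with total counts alone and without MLL4WT replicate 2 or MLL4KO replicate 2. Its copy FP565260.1 was at 69.2, 78.7 and 82.9 CPM in MLL4WT and 120.1, 125 and 126 CPM in MLL4KO, a rise of 1.59-fold (log2 0.67 ± 0.06, edgeR adjusted p = 5.72e-06). They differ at 4 of 2757 coding bases. The sum was at 187, 196 and 194 CPM in MLL4WT and 226, 222 and 229 CPM in MLL4KO, and rose 1.17-fold (edgeR adjusted p = 0.000998), below the shift by log2 -0.28 (edgeR adjusted p = 5.44e-05).

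**Figure D5:**
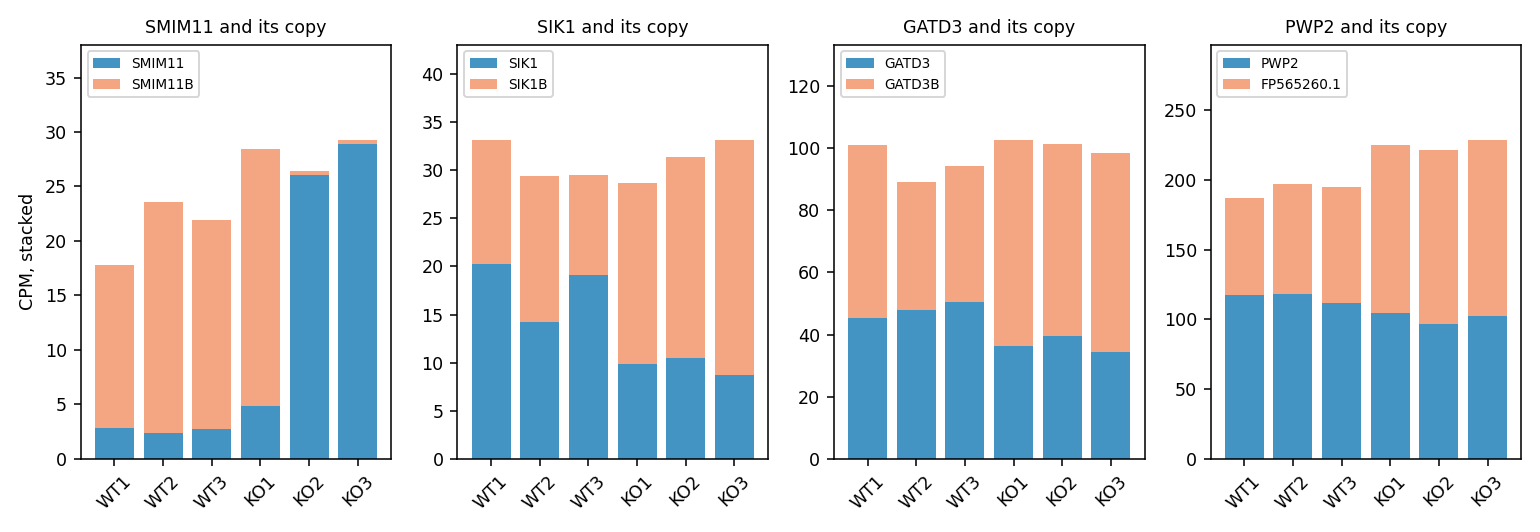
CPM (vertical axis, from 0) in each of the 6 libraries (horizontal axis) for 4 genes and their near-identical copies, stacked, with blue for the long-arm gene and orange for the copy. In MLL4KO the copies of SIK1, GATD3 and PWP2 take a larger share, and that of SMIM11 a share of 1.14% and 1.4% in MLL4KO replicates 3 and 2.

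The other copy pairs rose in sum. U2AF1, a subunit of the splicing factor that reads the 3′ splice site, was at 49.3, 123 and 139 CPM in MLL4WT and 200, 205 and 185 CPM in MLL4KO, and U2AF1L5, with the same 720 coding bases, at 124, 101 and 83.5 CPM in MLL4WT and 142, 132 and 156 CPM in MLL4KO. The sum was at 174, 222 and 221 CPM in MLL4WT and 343, 338 and 342 CPM in MLL4KO, a rise of 1.65-fold (edgeR adjusted p = 9.19e-05), above the shift by log2 0.21 (edgeR adjusted p = 0.0378). That departure was 0.11 without MLL4WT replicate 1, the lowest of the 3 (edgeR adjusted p = 0.00103), and was lost without any 1 of the MLL4KO libraries (log2 between 0.19 and 0.23). That library also stood apart in the split, with 71.5% of the pair's reads in U2AF1L5 against 37.6% to 45.8% in the other 5 libraries. Without it U2AF1 rose by log2 0.59 (edgeR adjusted p = 3.81e-05), and with it U2AF1 did not pass (edgeR adjusted p = 0.143).

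ICOSLG, the ligand of the T cell costimulator ICOS, and its copy FP565260.3 share 927 identical coding bases, and their sum rose 1.59-fold (edgeR adjusted p = 5.2e-05) with no departure call (edgeR adjusted p = 0.0983), or with one without MLL4WT replicate 1 (log2 0.20, edgeR adjusted p = 0.02). TRAPPC10, a subunit of a vesicle tethering complex, and FP565260.6 rose 1.398-fold in sum (edgeR adjusted p = 1.56e-05), on the shift (log2 departure -0.03, edgeR adjusted p = 0.634). With the 7 pairs summed, 133 entries remained, of which 93 rose, none fell, 30 lay above and 27 below the shift, against 20.4% higher and 20.8% lower over all genes in that fit. Among the 121 members not called near-identical by that rule, PPIAP22 included, 88 rose, none fell and 33 did not pass, at a median log2 fold change of 0.51.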

How the data were processed

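The authors deposited expected counts per gene, given as whole numbers for 59715 Ensembl IDs with no normalisation. Salmon 1.8.0, DESeq2 1.44.0 and hg38 are named, without roles, in the submitters' processing notes. No source used here names the annotation release, and the labels do not say that the library kit keeps strand. Genes were placed by GENCODE release 29 on GRCh38, which located 56227 of the 59715 IDs. Of the 14364 IDs with 60 or more counts, 14240 were located. IDs without a location could not be members and were counted among genes off the chromosome. The members, gene lists and naming rule were chosen with earlier results of these data known.

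Genes were filtered with filterByExpr, scaled by TMM and tested with the edgeR 4.0.16 quasi-likelihood test (robust, R 4.3.3), adjusted by Benjamini-Hochberg over the 14543 tested genes. All 140 members passed the filter. Departure was tested with the median log2 fold change of the members as an offset, treated as known. The SE is the absolute log2 fold change, or the absolute departure, divided by the square root of F. Of the tests against MLL4WT and against the shift, the one with the larger F was used. On simulated counts for the 140 members it recovered 36 of 39 that departed 1.5-fold and called 7 of 95 that lay at the shift. Smaller departures were not simulated, and few genes off the chromosome were changed.

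Named are KMT2D, the 10 members with the most counts, the 8 farthest above and below the shift among departing members with 5 CPM or more and no overlap of the genotypes once the shift is taken off, up to 4 of each list, those with near-identical copies on the chromosome (80% or more of the 31-base stretches of 1 gene in the other, both genes of a copy pair counted) and those nearest to 60 counts. Other genes were named after their values were seen. 1 of the cell type markers is not reported here. Alternatives were other scalings and filters, DESeq2 1.42.0, limma-voom 3.58.1, the replicate block, a term for a code in the column names that has the form of a flow cell code, leaving out each library and other definitions of the shift. Summed copies, their sums without each library, and a minimum of 600 counts were added after seeing the data.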

Additional observations from a re-analysis of the deposited data

How the results depend on the processing

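The median log2 fold change of the members, 0.51, ran from 0.49 to 0.57 over 23 alternatives. It was 0.56 with upper quartile factors, 0.57 with total counts alone, 0.53 with limma-voom and 0.52 with a term for the code in the column names, and between 0.49 and 0.53 when each library was left out. The 95 members that rose became 86 to 105 when each library was left out, the 3 that fell 2 to 4, the 30 above the shift 23 to 36 and the 27 below it 24 to 39. The count below was 39 without MLL4WT replicate 1 and 42 with the code term, in which that library, alone with its code, carries no information on genotype. The number that fell was 0 with copies summed, where the 3 genes concerned were tested as sums with their copies. With the replicate block the median was 0.51, 94 members rose, 3 fell, and 27 lay above and 27 below. The block ended the calls of ETS2 and U2AF1L5 against MLL4WT and the departures of ITSN1, LINC00205, SCAF4 and UBE2G2, and added both calls of SMIM11. Samples with the same number deviated together little (correlations of 0.025, 0.034 and -0.015), so the numbers were not taken to pair them. Over 140 members and 23 alternatives, 5152 of 5389 gene values kept their call or their lack of one, 123 lost and 114 gained a call. No value with a call in either fit turned direction. Values without a call in both fits were counted as kept whatever their direction, as were values without an adjusted p. Genes of the copy pairs were not counted in the setting that summed them. At the depth of the 34 members under 5 CPM, a shift of the shared size was seldom detectable, and reads of overlapping or near-identical genes cannot be assigned from these counts.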
